A study of Rattus norvegicus with 8 samples.

Results

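Liver from ethanol-fed rats was compared with liver from pair-fed rats 24 h after partial hepatectomy (PHx), the removal of 70% of the liver. The comparison used the 4 arrays of this time, out of 8 in the series: ethanol-fed with AM21, ethanol-fed untreated, pair-fed with AM21 and pair-fed untreated, 1 array each. The arrays were chosen by diet, treatment and time alone, and each ethanol-fed array was set against the pair-fed array of the same treatment. This gave 2 matched pairs that share no array, called the AM21 pair and the untreated pair. Of 18166 genes with a probe set, 8728 had a mean level of at least 5 on these arrays and were tested.

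All rats were male Sprague-Dawley, an outbred strain. They had received ethanol in the diet for a long period, or a control diet with carbohydrate by pair-feeding, in which a control animal receives the calories that its ethanol-fed partner takes in. AM21 is a locked nucleic acid oligonucleotide antisense to the microRNA miR-21, injected into the peritoneum at a dose of 7.5 mg/kg 72 h ahead of PHx and once more directly after it. Each array is 1 pool of RNA, from 3 animals with AM21 or 4 without, so animals cannot be compared with each other. No group has a replicate pool. With the 24 h arrays alone, p-values rest on how far the diet difference departs between the AM21 pair and the untreated pair. They also draw on a spread shared across genes. Any effect of AM21 on the diet difference is therefore counted as spread. The 0 h arrays are liver taken at the operation from the same animals. Animal numbers of the AM21 rats do not overlap with those of the untreated rats, and therefore treatment and cohort cannot be told apart. No array was of sham-operated rats, so what follows PHx cannot be told apart from what follows surgery or a day's wait.

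After partial hepatectomy the remaining hepatocytes, which are normally at rest, enter the cell cycle nearly in step. In the rat, DNA synthesis peaks about a day after the operation and mitosis follows, while the liver goes on with its metabolic work. Chronic ethanol feeding is known to slow this regrowth. Hepatocytes clear ethanol through alcohol dehydrogenase, the cytochrome P450 Cyp2e1 and aldehyde dehydrogenases, and fatty acid handling shifts as they do so. MicroRNA miR-21 rises in regenerating liver, and its mature sequence is shown because AM21 is directed against it. The capitals mark the seed, the bases by which a microRNA pairs with its targets (RefSeq, GRCr8, chr10:71902653-71902674, minus strand).
rno-miR-21-5p: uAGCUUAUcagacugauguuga

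Values are log2 levels as deposited, and for each diet the AM21 array is given before the untreated one. A difference is ethanol-fed minus pair-fed, so 1 on this scale is 2-fold. Median levels of the 8728 genes lay between 6.72 and 6.79 on the 4 arrays. Albumin (Alb) stood at 12.30 and 12.31 in ethanol-fed liver and at 12.38 and 12.29 in pair-fed liver, near the top of the scale. The 17 tested hepatocyte markers had median levels of 11.61 and 11.57 in ethanol-fed and 11.53 and 11.49 in pair-fed liver, and their differences ran from -0.06 to 0.28, so all 4 arrays carried the marker levels of liver. The first principal component of the 4 arrays held 53.4% of the variance, with scores of -7.7 and -15 for the ethanol-fed and 20.3 and 2.4 for the pair-fed arrays. The second, with 31.8%, set the pair-fed untreated array (17) apart from the other 3 (-9.3 to -1.2). Across genes the differences in the AM21 pair and the untreated pair correlated with r = 0.447 (Spearman's rho 0.372, 8728 genes). Genes are not independent replicates, and no p is given.

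No gene passed at 24 h. By limma with treatment as a term, 0 of 8728 genes (0.0%) had an adjusted p under 0.05, and the smallest was 0.101. With the spread shared with the 0 h arrays it was again 0 (0.0%), and the smallest adjusted p was 0.101. At an unadjusted p under 0.05, 1266 genes stood out with the 24 h arrays alone (14.5%), of which 702 were higher (8.04%) and 564 lower (6.46%). With the shared spread there were 1020 (11.7%). With 1 and 2 residual degrees of freedom, the result depends on how the spread is modelled. When limma's prior variance was a trend of the mean level, 58 genes passed on the 24 h arrays alone (0.665%), 41 higher (0.47%) and 17 lower (0.195%), and 48 passed with the shared spread, 39 of them in both. Without the pair-fed untreated array, and with diet as the sole term, 34 genes passed, and without the pair-fed AM21 array 6. Differences at 24 h are therefore given below by their values in both pairs, as descriptions. A value after ± is limma's moderated SE, which is drawn toward a spread common to all genes. It is not the spread of that gene alone, and was 0.109 for genes as unlike as Mcm2 and Col1a1.

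The genes that differed by at least 2-fold in both pairs were 19 of 8728 (0.218%), of which 14 were higher (0.16%) and 5 lower (0.0573%) with ethanol. On the higher side 4 belong to the list of CAR and PXR targets and 2 to fatty acid oxidation. At 1.5-fold in both pairs there were 88 higher (1.01%) and 68 lower (0.779%). At 2-fold with a mean level of at least 6, there were 14 of 6177 genes, 9 higher and 5 lower. These differences were not particular to 24 h. At 0 h the 14 higher genes were also higher in both pairs, and Car3, Cyp2c11, Fam111a and Lipo1 lower in both. The mean difference at 0 h was 3.24 for Gsta3, 1.61 for Aldh1a1 and -2.30 for Car3. It was smaller than at 24 h for others, such as Vnn1 (0.55), Gpt (0.61) and Cyp2c11 (-0.56). The glutathione transferase gene Gsta3 had the largest difference, with 7.42 and 7.25 in ethanol-fed liver against 4.70 and 3.54 in pair-fed liver (3.22 ± 0.25 SE, limma adjusted p = 0.101). The pair-fed levels lay under 5, where RMA gives no call of detection, so the size is uncertain. Gsta3 thus reached the level minimum through the ethanol-fed arrays. Prlr, the prolactin receptor, stood at 7.50 and 7.39 in ethanol-fed and 5.70 and 4.97 in pair-fed liver (2.10 ± 0.18). Cyp3a9, a steroid- and drug-oxidising P450, was at 8.50 and 7.88 in ethanol-fed and 6.61 and 6.36 in pair-fed liver (1.70 ± 0.14). For each of these 3 genes, both ethanol-fed arrays lay above both pair-fed arrays, as they did for 23.1% of all genes tested.

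Aldh1a1, which oxidises acetaldehyde and retinal, had 8.72 and 8.86 in ethanol-fed liver, against 7.30 and 7.52 in pair-fed liver (1.38 ± 0.11, limma adjusted p = 0.101). Ehhadh, the bifunctional enzyme of peroxisomal fatty acid oxidation, had 9.38 and 9.35 in ethanol-fed and 8.13 and 7.83 in pair-fed liver (1.39 ± 0.12). Vnn1, a pantetheinase that PPAR-alpha induces, had 8.03 and 8.08 in ethanol-fed and 6.48 and 6.71 in pair-fed liver (1.46 ± 0.12). In these 3 genes the spread within a diet was smaller than the gap between the diets. The other members of the group were Acsm5 (medium-chain acyl-CoA synthetase, 1.66), Ces2e (carboxylesterase, 1.47), Ifi47 (interferon-inducible GTPase, 1.45), Trib3 (pseudokinase of the stress response, 1.35), Ugt2a3 (glucuronosyltransferase, 1.32), Gpt (alanine aminotransferase, 1.24), Abcc3 (exporter of bile salts and conjugates, 1.23) and Akr1b7 (aldo-keto reductase, 2.44). Akr1b7 varied most between the pairs, with 7.89 and 9.01 in ethanol-fed and 6.68 and 5.34 in pair-fed liver. The pair-fed levels of Prlr, Acsm5, Trib3, Ces2e and Abcc3 also reached under 5 on at least 1 array. In Acsm5, Trib3 and Ces2e the pair-fed mean itself lay under 5 (4.98, 4.96 and 4.86). These genes reached the level minimum through the ethanol-fed arrays, so their sizes are uncertain. With diet alone and 1 array left out, the difference ran from 0.70 to 2.24 for Ces2e and from 0.68 to 2.23 for Ifi47. Gpt was the gene just inside the limit of 2-fold (1.03 in the smaller pair), and Aig1 just outside (0.97).

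The lower side held 5 genes, of which Car3 and Cyp2c11 belong to the male-pattern and growth hormone list. Car3, carbonic anhydrase 3, stood at 8.83 and 7.60 in ethanol-fed liver against 10.68 and 10.53 in pair-fed liver (-2.38 ± 0.27, limma adjusted p = 0.123). Cyp2c11, the main P450 of male rat liver, had 9.80 and 8.58 in ethanol-fed and 10.82 and 10.58 in pair-fed liver (-1.51 ± 0.25). Fam111a, a protease of replication forks in human cells, had 7.54 and 8.0 in ethanol-fed and 9.31 and 9.997 in pair-fed liver (-1.89 ± 0.12). In Car3 and Cyp2c11 the ethanol-fed untreated array was the lowest of the 4. With 1 array left out, the difference in Cyp2c11 ran from -2.12 to -0.90. The other members were the lipase-family gene Lipo1 (-2.06, or -2.84 to -1.28 with 1 array left out) and the uncharacterised LOC100360095 (-1.85), which the naming rule passes over and which is named after its values were seen. Spin2b, with -0.99 in the smaller pair, lay just outside the limit and Cyp2c11, with -1.02, just inside. The ethanol-fed mean of Spin2b was 4.62, so Spin2b reached the level minimum of 5 through the pair-fed arrays and its size is uncertain. Under 2-fold in at least 1 pair on this side were Gucy2c, guanylate cyclase C, with 5.15 and 5.65 in ethanol-fed and 6.07 and 6.74 in pair-fed liver, and the retinoid-binding protein Rbp7, with 5.90 and 6.0 against 6.86 and 6.90. Of the 20 tested genes in the male-pattern and growth hormone list, 7 were higher and 6 lower in both pairs (33.2% and 28.0% of all genes tested). The list's median difference was -0.02, against 0.02 over all genes. Its members were not sorted by the direction in which sex or growth hormone moves them. These counts therefore cannot show whether that pattern shifted. Among the higher members were Prlr, described above (2.10 ± 0.18), and Socs2, a brake on growth hormone signalling. Socs2 had 7.78 and 7.26 in ethanol-fed and 6.14 and 6.65 in pair-fed liver (1.13 ± 0.25).

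**Figure D1:**
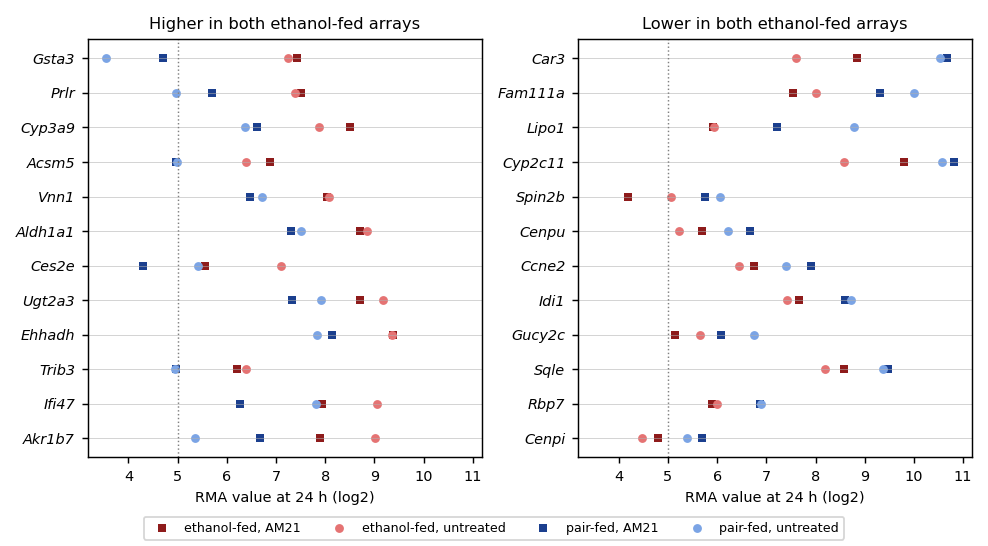
Log2 level at 24 h of the 12 genes with the largest smaller-pair difference on each side, 1 point per array, with ethanol-fed arrays in red, pair-fed arrays in blue, squares for AM21 and circles for untreated; the dotted line is the level minimum of 5. Gsta3 lies at 7.42 and 7.25 in ethanol-fed and at 4.70 and 3.54 in pair-fed liver, and Car3 at 8.83 and 7.60 against 10.68 and 10.53.

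Genes of cell division were lower in ethanol-fed liver in both pairs. Of 42 tested genes of G2 and mitosis, 39 were lower in both pairs and 0 higher (28.0% and 33.2% of all genes), with a median difference of -0.75. In 37 of the 42, both ethanol-fed arrays lay below both pair-fed arrays (19.4% of all genes). The list's median level was 6.74 and 6.50 in ethanol-fed liver and 7.81 and 6.93 in pair-fed liver. The pair-fed AM21 array was thus the highest of the 4, and the median difference was -1.09 in the AM21 pair and -0.37 in the untreated pair. The difference was the larger one in the AM21 pair for 40 of 42 genes (54.8% of all genes). None passed in limma's 24 h fits with a constant prior, and 1 was lower with the trended prior (0.195% of all genes).

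Cdk1, the kinase that drives entry into mitosis, stood at 7.83 and 7.69 in ethanol-fed liver against 8.87 and 8.03 in pair-fed liver (-0.69 ± 0.19, limma adjusted p = 0.243). Its partner Ccnb1, cyclin B1, had 7.98 and 7.69 in ethanol-fed and 9.27 and 8.10 in pair-fed liver (-0.85 ± 0.22). Top2a, the topoisomerase that untangles chromosomes, had 8.96 and 8.97 in ethanol-fed and 10.23 and 9.27 in pair-fed liver (-0.78 ± 0.24). In all 3 genes the pair-fed AM21 array stood alone at the top, and the other 3 arrays lay closer to each other than to it. Without that array the differences are -0.27 for Cdk1, -0.26 for Ccnb1 and -0.30 for Top2a. Foxm1, a transcription factor of the G2 programme, showed this most, with 6.29 and 6.21 in ethanol-fed and 7.66 and 6.34 in pair-fed liver, so its untreated pair differed by only -0.14. Mki67, the source of the Ki-67 antigen, had -0.997 in the AM21 pair and -0.23 in the untreated pair. The 2 members that follow differed by like amounts in both pairs, but the naming rule picked them for a large smaller-pair difference. Of the 42 list genes, 6 were lower by at least 1.5-fold in both pairs (0.779% of all genes). Cdkn3, a cell cycle phosphatase, had 7.95 and 7.17 in ethanol-fed and 8.92 and 8.0 in pair-fed liver, and Cep55, which acts in the last step of cell separation, had differences of -0.85 and -0.86. Cenpu and Cenpi, centromere proteins outside the list and named by the same measure, had -0.98 and -0.99, and -0.89 and -0.93. The ethanol-fed mean of Cenpi was 4.64, so Cenpi reached the level minimum of 5 through the pair-fed arrays and its size is uncertain.

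S phase genes were also lower, by less than the mitosis genes in the AM21 pair and by about as much in the untreated pair. Of 35 tested, 32 were lower in both pairs and 0 higher (28.0% and 33.2% of all genes), with medians of -0.64 in the AM21 pair and -0.33 in the untreated pair. The difference was the larger one in the AM21 pair for 32 of 35 genes (54.8% of all genes). The list's median level was 6.79 and 6.77 in ethanol-fed and 7.54 and 7.12 in pair-fed liver. Rfc3, a subunit of the clamp loader, had 6.61 and 6.36 in ethanol-fed and 7.54 and 7.12 in pair-fed liver (-0.84 ± 0.12, limma adjusted p = 0.137). Mcm2, part of the replicative helicase, had 7.14 and 7.10 in ethanol-fed and 7.52 and 7.50 in pair-fed liver (-0.39 ± 0.11), and Pcna, the sliding clamp, had 9.86 and 9.73 against 10.44 and 10.01 (-0.43 ± 0.13). Cdc6, which loads the helicase, had -0.71 and -0.66. The ethanol-fed mean of Cdc6 was 4.96, so Cdc6 reached the level minimum of 5 through the pair-fed arrays and its size is uncertain. In each of these 4 genes the ethanol-fed arrays lay below the pair-fed ones, as in 19.4% of all genes. Among 16 genes of G1 cyclins and cell cycle inhibitors, 9 were lower and 3 higher in both pairs (28.0% and 33.2% of all genes). The cyclins E stood lowest, with Ccne2 at 6.75 and 6.45 in ethanol-fed and 7.90 and 7.41 in pair-fed liver (-1.06 ± 0.12) and Ccne1 at -1.26 in the AM21 and -0.41 in the untreated pair. Cyclin D1 (Ccnd1), which acts before them, differed by -0.20 ± 0.11. The 24 ribosome biogenesis genes had 7 higher and 10 lower in both pairs and a median of -0.04, with Nop58 at -0.41.

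Promoter sequences of 2 mitotic and 2 S phase genes are shown to let a cell cycle motif be read in its place. They were chosen for a match of the marked motif and do not stand for their lists. Each window runs from 250 bases before the gene's start to 50 after it (RefSeq, GRCr8). The capitals mark TTTGAA, the cell cycle homology region of G2 and mitosis genes, in Cdk1 (chr20:19265043-19265342, plus strand) and Top2a (chr10:84473044-84473343, minus strand). In Mcm2 (chr4:122918045-122918344, minus strand) and Rfc3 (chr12:5836318-5836617, plus strand) they mark TTTGGCGC or TTTCGCGC, forms of the E2F site. In each window only the motif named for that gene is marked, on either strand, so Top2a shows the reverse complement and the 2 E2F matches of Mcm2 overlap. The Cdk1 window also holds 1 unmarked E2F match and the Mcm2 window 2 unmarked matches of TTTGAA.
Cdk1: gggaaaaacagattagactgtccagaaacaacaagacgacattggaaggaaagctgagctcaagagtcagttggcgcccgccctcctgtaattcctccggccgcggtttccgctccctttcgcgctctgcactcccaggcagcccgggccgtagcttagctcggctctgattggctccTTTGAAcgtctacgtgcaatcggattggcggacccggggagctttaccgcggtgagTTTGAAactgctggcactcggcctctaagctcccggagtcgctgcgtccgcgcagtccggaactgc
Top2a: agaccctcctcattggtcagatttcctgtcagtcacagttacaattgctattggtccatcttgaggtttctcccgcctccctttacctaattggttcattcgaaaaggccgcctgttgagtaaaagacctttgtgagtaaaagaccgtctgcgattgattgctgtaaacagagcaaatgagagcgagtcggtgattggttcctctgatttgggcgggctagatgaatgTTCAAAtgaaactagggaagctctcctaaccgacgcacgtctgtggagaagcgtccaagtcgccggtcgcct
Mcm2: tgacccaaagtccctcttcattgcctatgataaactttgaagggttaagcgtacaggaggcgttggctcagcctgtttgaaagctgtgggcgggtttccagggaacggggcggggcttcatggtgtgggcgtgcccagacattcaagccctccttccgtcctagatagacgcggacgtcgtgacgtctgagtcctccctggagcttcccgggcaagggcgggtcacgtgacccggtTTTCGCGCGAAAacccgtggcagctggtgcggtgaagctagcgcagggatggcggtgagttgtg
Rfc3: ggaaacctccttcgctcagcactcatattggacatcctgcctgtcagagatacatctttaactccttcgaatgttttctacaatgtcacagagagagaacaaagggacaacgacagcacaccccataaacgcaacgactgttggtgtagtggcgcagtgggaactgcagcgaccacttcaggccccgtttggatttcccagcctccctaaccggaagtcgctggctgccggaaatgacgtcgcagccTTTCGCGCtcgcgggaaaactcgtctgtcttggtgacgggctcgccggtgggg
TTTGAA was found in 26 of 34 mitosis promoters with a window (76.5%), in 3 of 31 S phase promoters (9.68%) and in 19.4% of all 27457 genes with a window. A gene counted once if any of its windows matched. The E2F letters were in 14 of 31 S phase promoters (45.2%), in 1 of 34 mitosis promoters (2.94%) and in 0.892% of all genes with a window. Cdk1 is that 1 mitosis promoter, and Mcm2 is among the 3 S phase promoters with TTTGAA. Neither motif contains the other. A match describes the letters and is not a binding site.

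**Figure D2:**
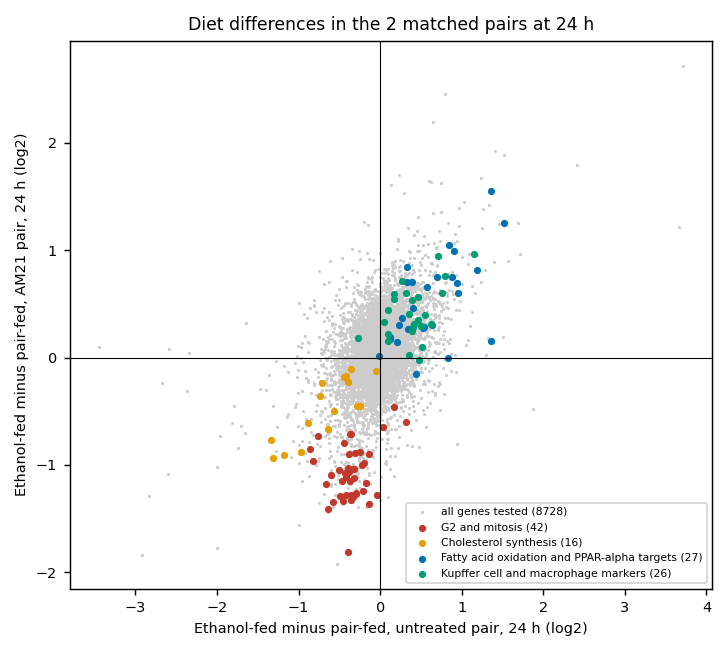
Diet difference (ethanol-fed minus pair-fed, log2) in the untreated pair on the x axis and in the AM21 pair on the y axis at 24 h, 1 point per gene, with 4 gene lists in colour over all 8728 genes in grey. Mitosis genes lie low on the y axis (median -1.09) and nearer 0 on the x axis (median -0.37), while cholesterol genes lie at like distances on both (medians -0.45 and -0.60).

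Cholesterol synthesis genes were lower throughout. All 16 tested members were lower in both pairs (28.0% of all genes), and in all 16 both ethanol-fed arrays lay below both pair-fed arrays (19.4%). The median difference was -0.45 in the AM21 pair and -0.60 in the untreated pair, and the median level was 8.25 and 8.02 in ethanol-fed against 9.0 and 8.79 in pair-fed liver. Idi1, the isomerase that makes the reactive isoprene unit, stood at 7.67 and 7.41 in ethanol-fed and 8.60 and 8.72 in pair-fed liver (-1.12 ± 0.14, limma adjusted p = 0.123). Sqle, squalene epoxidase, had 8.57 and 8.19 in ethanol-fed and 9.47 and 9.37 in pair-fed liver (-1.04 ± 0.13). Cyp51, the lanosterol demethylase, had 7.93 and 7.86 against 8.82 and 8.83 (-0.93 ± 0.11), a gene named after its values were seen. In the trended fit 5 of the 16 were lower (0.195% of all genes). The Idi1 promoter is shown with CCAAT, the NF-Y motif, in capitals on either strand (RefSeq, GRCr8, chr17:66547475-66547774, minus strand). The window also holds 1 unmarked match of TTTGAA.
Idi1: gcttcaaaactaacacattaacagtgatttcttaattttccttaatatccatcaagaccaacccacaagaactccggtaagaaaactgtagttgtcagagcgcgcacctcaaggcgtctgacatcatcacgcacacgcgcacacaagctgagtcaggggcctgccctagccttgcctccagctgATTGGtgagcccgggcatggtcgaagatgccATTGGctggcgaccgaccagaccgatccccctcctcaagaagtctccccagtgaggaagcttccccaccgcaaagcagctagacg
CCAAT was in 10 of 12 cholesterol promoters (83.3%), in 25 of 34 mitosis promoters (73.5%) and in 20 of 31 S phase promoters (64.5%). It was in 10 of 21 fatty acid oxidation promoters (47.6%) and in 39.6% of all genes with a window. TCACNCCAC, a form of the sterol regulatory element, was in 0 of 12 and in 1.25% of all genes with a window. Fatty acid synthesis did not follow the cholesterol genes as a list: of 16 genes 6 were lower and 3 higher in both pairs (28.0% and 33.2% of all genes). Acly, which makes cytosolic acetyl-CoA, had 7.75 and 7.46 in ethanol-fed and 8.53 and 8.41 in pair-fed liver (-0.87 ± 0.12), and the desaturase Fads1 had -0.50 and -0.78. Gpam, which starts triglyceride synthesis, was at 0.48 and 0.29, and the regulator Srebf1 at 0.10 and -0.18.

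Genes of fatty acid oxidation and PPAR-alpha targets were higher. Of 27 tested, 24 were higher and 0 lower in both pairs (33.2% and 28.0% of all genes), and in the same number both ethanol-fed arrays lay above both pair-fed arrays (23.1%). The median difference was 0.46 in the AM21 pair and 0.54 in the untreated pair. The list's median level was 9.63 in both ethanol-fed arrays, against 8.87 and 8.95 in the pair-fed arrays. Next to Ehhadh and Vnn1, described above, Fgf21, a fasting hormone, had 5.42 and 5.54 in ethanol-fed and 4.82 and 4.58 in pair-fed liver (0.78 ± 0.14). Both pair-fed levels lay under 5, so Fgf21 reached the level minimum through the ethanol-fed arrays and the size is uncertain. The receptor gene Ppara itself differed by 0.15 ± 0.11. In the trended fit 7 of the 27 were higher (0.47% of all genes).

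Targets of the xenobiotic receptors CAR and PXR were also mostly higher, with 16 of 22 higher and 1 lower in both pairs (33.2% and 28.0% of all genes) and a median difference of 0.63. Of these genes 4 passed 2-fold in both pairs (Cyp3a9, Aldh1a1, Ces2e and Abcc3, described above; 0.16% of all genes). Nr1i3, the gene of CAR, had 7.17 and 7.22 in ethanol-fed and 6.23 and 6.63 in pair-fed liver (0.76 ± 0.13). Cyp2b2, a phenobarbital-inducible P450, had 8.04 and 6.45 in ethanol-fed and 5.58 and 5.66 in pair-fed liver, so its difference was 2.46 in the AM21 pair and 0.79 in the untreated pair. Probe sets of Cyp2b2 and its near-identical paralog may share signal, as may those of the glutathione transferases. Sult2a1, a steroid sulfotransferase, stood at 8.29 and 7.21 in ethanol-fed liver and at 8.25 and 9.55 in pair-fed liver. Its AM21 arrays lay close together, while of the untreated arrays the ethanol-fed one was the lowest of the 4 and the pair-fed one the highest. The wider list of drug-metabolising P450 genes had 11 of 22 higher and 3 lower in both pairs (33.2% and 28.0% of all genes, list median 0.16).

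Of 15 genes of ethanol and aldehyde metabolism, 9 were higher and 3 lower in both pairs (33.2% and 28.0% of all genes), with a median of 0.16. Next to Aldh1a1, Adh6, an alcohol dehydrogenase, had 9.44 and 8.93 in ethanol-fed and 8.29 and 8.0 in pair-fed liver (1.03 ± 0.12, limma adjusted p = 0.123). The main enzymes of ethanol oxidation were near level at the RNA. Cyp2e1 had 10.64 and 10.39 in ethanol-fed and 10.34 and 10.48 in pair-fed liver (0.11 ± 0.14), Adh1c differed by 0.18 ± 0.13, and Aldh2, the mitochondrial acetaldehyde dehydrogenase, by 0.16 ± 0.11. Protein was not measured. Acss2, which activates acetate, had 7.42 and 7.14 in ethanol-fed and 7.93 and 7.58 in pair-fed liver (-0.47 ± 0.11). Among 34 glutathione and NRF2 genes, 21 were higher and 2 lower in both pairs (33.2% and 28.0% of all genes). The higher ones were led by Gsta3 and by Akr7a3, an aflatoxin aldehyde reductase (0.90 and 1.57). The list's median was 0.15.

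Genes of the ATF4 stress response had 13 of 18 higher and 2 lower in both pairs (median 0.21). For this list and the next 4, the same counts over all genes were 33.2% higher and 28.0% lower. Trib3 stood at 6.22 and 6.39 in ethanol-fed liver against 4.98 and 4.94 in pair-fed liver, while Mthfd2, a mitochondrial folate enzyme, had -0.51 and -0.41. Endoplasmic reticulum chaperones had 2 of 23 higher and 12 lower in both pairs (median -0.11). Of these Creld2 had 8.02 and 8.21 in ethanol-fed and 8.38 and 8.89 in pair-fed liver (-0.52 ± 0.13). In the list of urea cycle, gluconeogenesis and amino acid breakdown, 19 of 29 were higher and 2 lower in both pairs (median 0.17). Prodh, proline dehydrogenase, had 7.63 and 7.32 in ethanol-fed and 6.67 and 6.23 in pair-fed liver (1.03 ± 0.11). Igfbp1, a secreted binding protein of insulin-like growth factors, had 9.48 and 9.81 in ethanol-fed and 8.93 and 8.90 in pair-fed liver (0.73 ± 0.14). Of 16 bile acid genes 10 were higher and 2 lower in both pairs (median 0.26). The uptake carrier Slc10a1 had 10.58 and 10.57 in ethanol-fed and 9.70 and 9.95 in pair-fed liver (0.75 ± 0.12), and Cyp7a1, which controls the rate of bile acid synthesis, differed by 0.25 ± 0.12. The 19 genes of growth arrest and mature hepatocyte factors had 9 higher and 4 lower in both pairs (median 0.06).

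**Figure D3:**
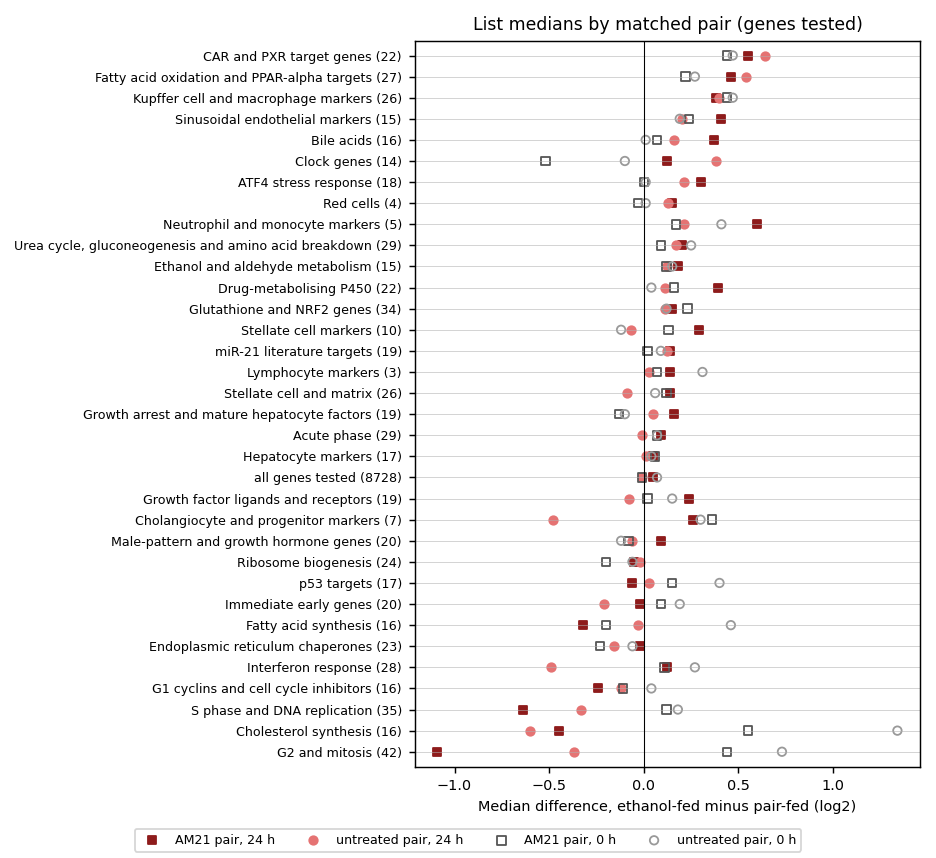
Median diet difference (ethanol-fed minus pair-fed, log2) of each gene list and of all genes tested, with filled symbols for the 24 h pairs and open symbols for the 0 h pairs, squares for AM21 and circles for untreated, and the number of genes tested in brackets. At 24 h the G2 and mitosis list lies at -1.09 and -0.37 and the fatty acid oxidation list at 0.46 and 0.54.

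Markers of macrophages were higher in ethanol-fed liver. Of 26 tested Kupffer cell and macrophage markers, 24 were higher and 0 lower in both pairs (33.2% and 28.0% of all genes), with medians of 0.38 in the AM21 pair and 0.40 in the untreated pair. The list's median level was 7.73 and 7.93 in ethanol-fed and 7.50 and 7.65 in pair-fed liver. Cd14, the endotoxin co-receptor, stood at 7.24 and 7.70 in ethanol-fed and 6.28 and 6.55 in pair-fed liver (1.06 ± 0.12, limma adjusted p = 0.123). Marco, a scavenger receptor, had 8.51 and 8.82 in ethanol-fed and 7.75 and 8.03 in pair-fed liver (0.78 ± 0.11). In bulk liver, more cells of a type and more RNA per cell cannot be told apart, and the part of these cells in the other results was not tested. For the lists that follow, the same counts over all genes were 33.2% higher and 28.0% lower. Of the 15 sinusoidal endothelial markers 10 were higher and 2 lower in both pairs (median 0.28). Cdh5, the endothelial cadherin, was at 7.68 and 7.85 in ethanol-fed and 7.24 and 7.39 in pair-fed liver. Only 5 of 18 neutrophil and monocyte markers with a probe set reached the level minimum, and 4 of them were higher in both pairs. Cybb, a subunit of the phagocyte oxidase, had 7.52 and 7.74 in ethanol-fed and 6.87 and 7.24 in pair-fed liver (0.57 ± 0.11). S100a8, abundant in neutrophils, was highest on the untreated array of each diet, with 7.42 and 8.54 in ethanol-fed and 6.42 and 8.09 in pair-fed liver. Of 24 lymphocyte markers with a probe set 3 reached the minimum, 2 of them higher and 1 lower in both pairs. Of 10 stellate cell markers 4 were higher and 0 lower, of 26 stellate cell and matrix genes 7 were higher and 4 lower, with Col1a1 at 0.18 ± 0.11, and of 7 cholangiocyte and progenitor markers 0 were higher and 2 lower. The 4 red cell genes tested had 2 higher and 1 lower in both pairs.

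Acute phase genes were near level between the diets, with a median of 0.04. The list's median level was 11.73 and 11.80 in ethanol-fed and 11.55 and 11.72 in pair-fed liver, near the top of the scale. Whether the scale limits differences there was not tested. Of 29 tested, 12 were higher and 2 lower in both pairs (33.2% and 28.0% of all genes). A2m, the main acute phase protein of the rat, had 11.56 and 12.05 in ethanol-fed and 11.55 and 12.14 in pair-fed liver. Lcn2, lipocalin 2, differed by -0.03 ± 0.11 and Hamp, hepcidin, by -0.02 ± 0.13. Interferon response genes split by pair. Of 28 tested, 15 were higher in the AM21 pair and lower in the untreated pair (24.6% of all genes), and the medians were 0.12 and -0.49. Mx2, an antiviral GTPase, stood at 6.49 and 6.05 in ethanol-fed and 6.39 and 9.50 in pair-fed liver, and the ubiquitin-like Isg15 at 6.90 and 6.90 in ethanol-fed and 7.13 and 9.57 in pair-fed liver. The pair-fed untreated array stood alone above the other 3 for both genes. Without it the differences are -0.12 for Mx2 and -0.23 for Isg15. Cxcl9, an interferon-gamma chemokine, was lower in both pairs (-0.69 and -0.85), and Isg20, a nuclease, as well (-0.77 and -1.07), while Irf1 was at 0.53 and 0.34.

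Growth signals showed no common direction. Of 19 growth factor ligands and receptors 6 were higher and 7 lower in both pairs (median 0.01). For all lists in this paragraph, the same counts over all genes were 33.2% higher and 28.0% lower. Hgf, hepatocyte growth factor, had 7.14 and 7.45 in ethanol-fed and 6.90 and 7.64 in pair-fed liver, and its receptor gene Met differed by 0.30 ± 0.12. Erbb3, a receptor of the EGF receptor family, had 7.25 and 7.43 in ethanol-fed and 6.30 and 6.88 in pair-fed liver (0.75 ± 0.14). Of 20 immediate early genes 4 were higher and 9 lower in both pairs (median -0.08). Among them Klf6 had 6.40 and 6.44 in ethanol-fed and 7.04 and 6.99 in pair-fed liver (-0.60 ± 0.11), and Dusp6, a phosphatase of the MAP kinase ERK, was at 0.69 and 0.48. The 17 p53 targets had 7 higher and 7 lower in both pairs, with Ccng1 at 9.14 and 9.09 in ethanol-fed and 9.70 and 9.52 in pair-fed liver. Of 19 literature targets of miR-21, 8 were higher and 2 lower in both pairs (median 0.09). Pdcd4, the best known of them, had 8.42 and 8.27 in ethanol-fed and 7.90 and 8.13 in pair-fed liver (0.33 ± 0.14). Cdc25a, a phosphatase that activates cell cycle kinases, was at -0.99 and -0.34, and Crebl2 at 0.29 and 0.72. Outside the lists, Abhd3, a phospholipase, stood apart on 1 array, with 6.29 and 4.0 in ethanol-fed and 6.20 and 6.59 in pair-fed liver. At 0 h the same pool, ethanol-fed untreated, was again the lowest, with 5.36 and 3.49 in ethanol-fed and 5.16 and 5.40 in pair-fed liver.

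The diet difference at 24 h was then set against that in the same pools at 0 h, as the time by diet coefficient with the pool as a block. Here 36 of 8728 genes passed in limma (0.412%; 948, or 10.9%, at an unadjusted p under 0.05). For 33 of them the difference was lower at 24 h (0.378%), and for 3 higher (0.0344%). Of the 33, 15 belong to the mitosis list, 5 to cholesterol synthesis and 1 to S phase, and 30 were higher in both ethanol-fed arrays at 0 h and lower in both at 24 h. Over all genes 7.06% showed that turn. For 23 of the 33 a pair-fed 0 h level lay under 5, so the size at 0 h is uncertain. The count depends on the fit, and was 0 with all 4 pools once the time by treatment term was dropped. With a pool left out that term cannot be kept, so the weight of 1 pool in the 36 was not measured on its own. Without the term, 30 genes passed when the pair-fed AM21 pool was left out and 0 when any other pool was. With the term and all pools, the count was 3 without the level minimum, 23 with each array centred on its median and 188 with the trended prior.

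The mitosis list as a whole had a median difference of -1.09 and -0.37 at 24 h, against 0.44 and 0.73 at 0 h. Its median level at 0 h was 4.57 and 5.07 in ethanol-fed and 3.92 and 4.19 in pair-fed liver, so the level was higher in all 4 pools at 24 h than at 0 h. Cdk1 had 4.91 and 5.40 in ethanol-fed and 3.72 and 3.98 in pair-fed liver at 0 h, and its coefficient was -1.99 (adjusted p = 0.0183). For Ccnb1 it was -2.44, for Cdkn3 -2.23, for Top2a -1.96 and for Mki67 -1.75. Cdkn1a, the inhibitor p21, passed with the smallest p. At 24 h it had 8.47 and 8.40 in ethanol-fed and 9.15 and 8.47 in pair-fed liver (coefficient -2.66 ± 0.21, adjusted p = 0.0147). Its 0 h levels were 8.38 and 8.38 in ethanol-fed and 6.58 and 5.60 in pair-fed liver.

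All 16 cholesterol synthesis genes were higher in both pairs at 0 h (medians 0.55 and 1.34) and lower in both at 24 h. The list's median level in ethanol-fed liver was 8.25 and 8.02 at 24 h against 9.33 and 9.42 at 0 h, while in pair-fed liver it was 9.0 and 8.79 at 24 h against 8.21 and 7.52 at 0 h. The median was thus lower at 24 h than at 0 h in both ethanol-fed pools and higher in both pair-fed pools. Sqle had 9.28 and 9.62 in ethanol-fed and 8.15 and 7.69 in pair-fed liver at 0 h, and its coefficient was -2.57 ± 0.28 (adjusted p = 0.0183). For Idi1 the coefficient was -2.36, and for Cyp51 -1.97. It was -2.07 for Dhcr7, the last enzyme of the pathway, and -1.63 for Hsd17b7, a sterol reductase, both named after their values were seen.

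The 3 genes with the opposite sign were Lox, Per2 and Usp2, of which Per2 and Usp2 are named after their values were seen. Lox, the collagen cross-linking enzyme, had 5.09 and 5.06 in ethanol-fed and 6.08 and 5.50 in pair-fed liver at 24 h, against 3.69 and 3.56 in ethanol-fed and 6.92 and 6.10 in pair-fed liver at 0 h (2.16 ± 0.20, adjusted p = 0.0173). Its ethanol-fed 0 h levels were under 5. Per2, a clock repressor, had differences of -0.10 and 0.50 at 24 h and of -2.24 and -1.23 at 0 h (coefficient 1.93), and Usp2, a clock-controlled deubiquitinase, of -0.16 and 0.81 at 24 h and of -1.47 and -1.19 at 0 h (coefficient 1.65). The 14 clock genes had 6 higher and 2 lower in both pairs at 24 h (33.2% and 28.0% of all genes). Their medians were 0.12 and 0.38 at 24 h and -0.52 and -0.10 at 0 h. The core activator Bmal1 had 6.99 and 7.35 in ethanol-fed and 5.81 and 6.63 in pair-fed liver at 24 h (0.95 ± 0.15). Nfil3, which opposes the clock factor Dbp, was at 0.50 and 0.59, Dbp at -1.23 and -0.29, and the repressor Nr1d1 at -0.45 and -1.79. The sources used here give no time of day. Cyp2c55, a P450, had a coefficient of -2.54 (adjusted p = 0.0147), with differences of 0.92 and -0.47 at 24 h and of 3.64 and 1.91 at 0 h.

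**Figure D4:**
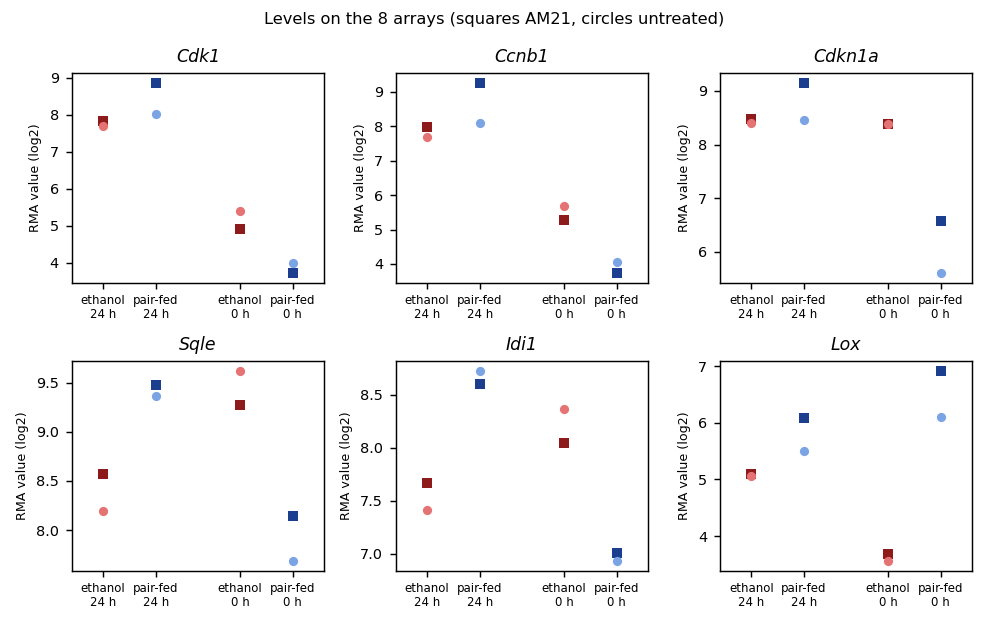
Log2 level of 6 genes on the 8 arrays, 24 h left of 0 h, with ethanol-fed arrays in red, pair-fed arrays in blue, squares for AM21 and circles for untreated; the y axes differ and do not start at 0. Cdk1 and Ccnb1 are higher at 24 h in every pool and lower in ethanol-fed than in pair-fed liver at that time, while Sqle and Idi1 in ethanol-fed liver are lower at 24 h than at 0 h.

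The macrophage and fatty acid oxidation genes were mostly higher in ethanol-fed liver at both times. At 0 h the Kupffer list had medians of 0.44 and 0.47, and 23 of 26 markers were higher in ethanol-fed liver in all 4 pairs (14.9% of all genes). For fatty acid oxidation the 0 h medians were 0.22 and 0.27, and 19 of 27 genes were higher in all 4 pairs. None of either list passed the test of 24 h against 0 h with the constant prior. With the trended prior, limma's adjusted p for that test was 0.0381 for Vnn1 and 0.0462 for Ehhadh, both of the fatty acid oxidation list. Over all genes, the difference at 24 h correlated with that at 0 h with r = 0.204 in the AM21 pools and 0.263 in the untreated pools.

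**Figure D5:**
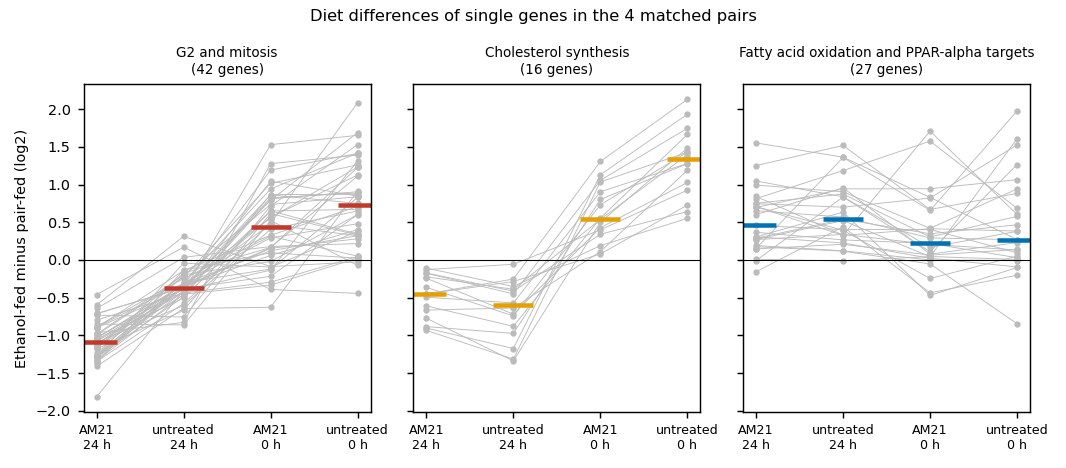
Diet difference (ethanol-fed minus pair-fed, log2) of single genes, joined by grey lines, in the 4 matched pairs for 3 lists, with the median as a coloured bar. The mitosis medians are -1.09 and -0.37 at 24 h against 0.44 and 0.73 at 0 h, the cholesterol medians -0.45 and -0.60 against 0.55 and 1.34, and the fatty acid oxidation medians 0.46 and 0.54 against 0.22 and 0.27.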

How the data were processed

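RNA of rat liver was hybridised to Affymetrix arrays. The deposited values are log2 levels. Per the submitters' processing notes, the authors used RMA and Affymetrix Expression Console, with no version given in the sources used here. RMA corrects background, normalizes the arrays to each other and summarises each probe set. A shift common to most genes is lost in it, and it gives no detection call. Precision is limited by the number of pools, as arrays hold no reads. Values of the 8 arrays lay between 0.481 and 13.34.

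Of 36685 probe sets, 18511 have 1 gene symbol in the platform table, 575 have several and 17599 are unnamed here. By gene identifier, 18394 of the 18511 were found in the RefSeq table of GRCr8. The 18511 probe sets stand for 18166 genes. The probe set with the highest mean represents each of the 291 genes with more than 1. Genes with a mean of at least 5 on the 24 h arrays were tested.

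Models were fitted with lmFit and eBayes of limma 3.58.1 (R 4.3.3). P-values were adjusted after Benjamini-Hochberg over all 8728 genes, with a threshold of 0.05. The fits were tested on simulated data. The 24 h arrays alone were fitted with treatment and diet (1 residual degree of freedom). A second fit shared the spread with the 0 h arrays (2). The third tested 24 h against 0 h with the pool as a fixed block (1). The pairing of times rests on the animal identifiers in the labels.

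The naming rule took the 12 highest and 12 lowest genes by their smaller-pair difference, up to 4 per list, the 5 smallest p-values of the third fit, the 5 largest differences between pairs and a fixed set of liver genes, of which Adh1, Cyp2b1 and Fasn were not tested. The members and lists were chosen with earlier results of these data known. Promoter and microRNA sequences are those of RefSeq (GRCr8).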

Additional observations from a re-analysis of the deposited data

Results flagged for a closer look

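The diet difference at 24 h differed from that at 0 h in 36 genes by the time by diet test in limma. Among those named, the coefficient (24 h minus 0 h) was -2.66 for Cdkn1a, -2.54 for Cyp2c55, -2.23 for Cdkn3, -2.44 for Ccnb1, -2.36 for Idi1, -1.99 for Cdk1, -2.57 for Sqle, -2.07 for Dhcr7, -1.96 for Top2a, -1.97 for Cyp51, -1.75 for Mki67 and -1.63 for Hsd17b7. It was positive for Lox (2.16), Per2 (1.93) and Usp2 (1.65). In these genes the adjusted p lay between 0.0147 and 0.0435. With all 4 pools, none of the 36 kept its call without the time by treatment term.

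In other genes covered by the naming rule or named above, both pairs had one sign at 24 h and the other at 0 h. The test of the difference did not pass in them with the constant prior. Toward lower at 24 h these were Acss2 (-1.81, adjusted p = 0.0775), Rbp7, a retinoid-binding protein (-1.11, 0.0817), Klf6 (-1.01, 0.109), Ccng1 (-0.86, 0.152), the keratin gene Krt18 (-1.14, 0.17), Timp1, an inhibitor of metalloproteinases (-0.76, 0.202), Fads1 (-1.0, 0.208), Pcna (-0.70, 0.242), Foxm1 (-0.81, 0.389), the growth arrest gene Gadd45b (-0.39, 0.589), Aldh1b1, an aldehyde dehydrogenase (-0.29, 0.666), the endothelial Plvap (-0.26, 0.73), the receptor gene Egfr (-0.20, 0.804), Cps1 of the urea cycle (-0.19, 0.819) and the fibrinogen gene Fga (-0.09, 0.934). Toward higher they were Slc25a37, a mitochondrial iron carrier (0.99, 0.113), Selenos (0.66, 0.273) and Sel1l (0.33, 0.633) of endoplasmic reticulum protein breakdown, the cytokine brake Socs3 (0.59, 0.33), Ppara (0.60, 0.413) and Aldh2 (0.29, 0.679). With the trended prior, limma's adjusted p was under 0.05 for Acss2 (0.00239), Rbp7 (0.0317), Klf6 (0.0367) and Ccng1 (0.0166). So it was for Krt18 (0.0069), Fads1 (0.00806) and Pcna (0.0451), and for no other gene of this paragraph.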

How the results depend on the processing

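With the 24 h arrays alone, the count of 0 became 58 with a trended prior variance, and with diet as the sole term and 1 array left out it ranged from 0 to 34. With the spread shared it became 48 with the trended prior and ranged from 0 to 5 when 1 array was left out. The count of 36 for 24 h against 0 h was 3 with no level minimum, 23 with arrays centred on their medians, 188 with the trended prior and 0 with no time by treatment term. Fits without 1 pool also lack that term, and gave 0 to 30. The count of 19 at 2-fold became 156 at 1.5-fold. Centring, a stricter minimum and averaged probe sets left the other counts within 1.5 times. Differences at 24 h changed sign when 1 array was left out in A2m (-0.33 to 0.26), Adh1c (-0.04 to 0.39), Alb (-0.07 to 0.02), Aldh1b1 (-0.47 to 0.14), Cyp2c55 (-0.58 to 1.03), Cyp2e1 (-0.02 to 0.23), Egfr (-0.30 to 0.0), Fga (-0.08 to 0.02), Hamp (-0.10 to 0.07), Hgf (-0.34 to 0.39), Lcn2 (-0.10 to 0.03), Per2 (-0.03 to 0.43), S100a8 (-0.11 to 1.56), Selenos (-0.02 to 0.54), Srebf1 (-0.19 to 0.11), Timp1 (-1.02 to 0.05) and Usp2 (-0.02 to 0.67). The cause was not tested. A random block for the pool together with the time by treatment term, as planned, was not run, because no correlation could be estimated. Without that term, an alternative chosen after seeing the data, the correlation was -0.249 and 0 genes passed. No paired analysis by replicate number was possible because the labels give none.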
